A study of Mus musculus with 24 samples.

Results

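The genes described here are a block of neighbours on mouse chromosome 7 that matches band 16p11.2 of the human genome. The 52 genes were taken as the chromosomal neighbours of Bcl7c, Zfp668 and Gdpd3 and were matched by symbol to the array's annotation. Among probe sets annotated to 1 symbol, the one brightest on average over the 24 arrays stood for each gene. Of the 52 genes, 45 were measured and 44 were bright enough to be tested, out of 17097 genes measured and 13218 tested on the array. The probe set of Prss8, a membrane serine protease, lay below the brightness floor. The other 7 were not measured: Mapk3, Ino80e, Qprt, Zfp747, Setd1a and Zfp646 had no probe set under their symbol, and Srcap only probe sets that carry a further gene symbol. The genes were listed by position, around Bcl7c, Zfp668 and Gdpd3, with earlier results of these data already known.

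RNA of 24 mouse tumours excised from the cortex of the brain was measured, 1 array per tumour. The tumours came from cells expressing 1 of 3 class genes: RAB3A (6 tumours), BC74C (9 tumours) or ZNF668 (9 tumours). BC74C is not an approved gene symbol and is kept as the labels spell it. By a second label 11 tumours are TUMOR-EPENDYMOMA, 4 TUMOR-HGG, 5 TUMOR and 4 TUMOR UNKNOWN. The RAB3A tumours comprise 2 ependymoma, 2 TUMOR and 2 unknown, the BC74C tumours 6 ependymoma, 2 HGG and 1 unknown, and the ZNF668 tumours 3 ependymoma, 2 HGG, 3 TUMOR and 1 unknown. The labels give no strain, age, promoter or way of gene delivery, no further allele or agent, and no group without a class gene. Replicate numbers below follow the order of deposit within a class gene. Nothing in the labels states whether each tumour had its own animal, so the p-values measure only the spread between these samples, which may in part be technical.

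In humans, deletion or duplication of 16p11.2 is a recurrent copy number change that is associated with autism, epilepsy and altered brain size. The block is dense with genes of unrelated function: kinases, chromatin and zinc finger proteins, proteins of synapses and vesicles, leukocyte surface and cytoskeletal proteins, and metabolic enzymes. Neighbouring genes can share regulatory sequence or a copy number change, and the data allow the question whether the neighbours rise and fall together from tumour to tumour.

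Of the 52 genes, 43 have a promoter window in the RefSeq table of assembly GRCm38.p6. Mapk3, Doc2a, Asphd1, Sez6l2, Cdipt, Prrt2, Itgal, Zfp646 and Prss8 have none there. The 250 bases before the annotated start are shown for 5 genes on which the results turn: Gdpd3, which differed between class genes; Ypel3 and Kctd13, which followed neuronal transcripts; and Kif22 and Hirip3, which followed proliferation transcripts. They lie at chr7:126766164-126766413 (plus strand) for Gdpd3, chr7:126776713-126776962 (plus) for Ypel3, chr7:126928629-126928878 (plus) for Kctd13, chr7:127042421-127042670 (minus) for Kif22 and chr7:126861722-126861971 (plus) for Hirip3. They are written 5′ to 3′ on the gene's strand, with each CG dinucleotide in capitals.
Gdpd3: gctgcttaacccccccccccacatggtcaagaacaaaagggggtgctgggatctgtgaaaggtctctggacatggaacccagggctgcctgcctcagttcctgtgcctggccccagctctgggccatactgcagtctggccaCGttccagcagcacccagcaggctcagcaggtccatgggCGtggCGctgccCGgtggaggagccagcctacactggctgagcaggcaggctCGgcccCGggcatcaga
Ypel3: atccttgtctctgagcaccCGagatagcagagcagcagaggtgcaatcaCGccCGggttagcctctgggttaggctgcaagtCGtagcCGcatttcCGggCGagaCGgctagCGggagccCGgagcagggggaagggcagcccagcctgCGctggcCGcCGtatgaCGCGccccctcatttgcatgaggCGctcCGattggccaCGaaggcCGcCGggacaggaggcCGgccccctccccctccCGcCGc
Kctd13: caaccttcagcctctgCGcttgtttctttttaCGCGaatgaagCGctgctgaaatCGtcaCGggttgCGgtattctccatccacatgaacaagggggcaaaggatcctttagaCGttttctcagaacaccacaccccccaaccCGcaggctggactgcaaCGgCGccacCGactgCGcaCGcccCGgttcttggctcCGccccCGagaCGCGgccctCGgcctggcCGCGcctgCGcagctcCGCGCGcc
Kif22: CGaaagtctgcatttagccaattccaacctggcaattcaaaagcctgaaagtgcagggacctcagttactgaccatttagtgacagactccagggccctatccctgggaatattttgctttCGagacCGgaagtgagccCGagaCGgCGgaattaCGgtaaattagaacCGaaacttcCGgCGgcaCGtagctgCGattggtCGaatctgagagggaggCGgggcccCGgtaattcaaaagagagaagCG
Hirip3: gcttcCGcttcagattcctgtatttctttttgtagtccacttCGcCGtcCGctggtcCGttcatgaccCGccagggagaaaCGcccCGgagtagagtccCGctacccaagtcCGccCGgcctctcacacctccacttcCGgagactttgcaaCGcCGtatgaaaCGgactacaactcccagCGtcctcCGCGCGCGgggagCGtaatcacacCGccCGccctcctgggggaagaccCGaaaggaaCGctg
The Gdpd3 stretch holds 6 CG dinucleotides against 23 for Ypel3, 26 for Kctd13, 16 for Kif22 and 25 for Hirip3, although its GC content of 65.2% exceeds that of Kctd13 (63.2%), Kif22 (52%) and Hirip3 (61.6%).

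The array medians lay between 4.98 and 5.19 on the log2 scale, and the number of arrays limits the precision. As a check of the tissue label, the mean of 12 glia and neural stem markers lay between 7.60 and 10.15 in the 24 tumours, and that of 16 neuron markers between 4.69 (ZNF668 replicate 7) and 9.98 (RAB3A replicate 1). The mean of the ependymal marker list lay between 5.03 and 6.26 in tumours labelled ependymoma and between 4.98 and 5.80 in those labelled HGG, so this list did not set the labels apart. The proliferation list ranged from 4.36 to 9.16.

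Gdpd3 was the single member of the block that differed between class genes at an adjusted p under 0.05. It encodes a lysophospholipase D of the glycerophosphodiester phosphodiesterase family. In RAB3A tumours its log2 value was lowest at 8.61 (replicate 6), with a median of 9.86 and a highest value of 11.19. In BC74C tumours the lowest value was 7.44 (replicate 7), the median 9.95 and the highest 11.27. In ZNF668 tumours the lowest value was 4.43, the median 5.10 and the highest 9.30 (replicate 5). The ZNF668 tumours thus spread over most of the range: 6 of 9 lay between 4.43 and 5.45, replicates 1 and 3 stood at 8.13 and 7.16, and replicate 5 lay inside the range of both other class genes. The Gdpd3 mean was 10.01 ± 0.92 (SD, n = 6) with RAB3A. It was 9.52 ± 1.55 (SD, n = 9) with BC74C. With ZNF668 it was 5.97 ± 1.78 (SD, n = 9).

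**Figure D1:**
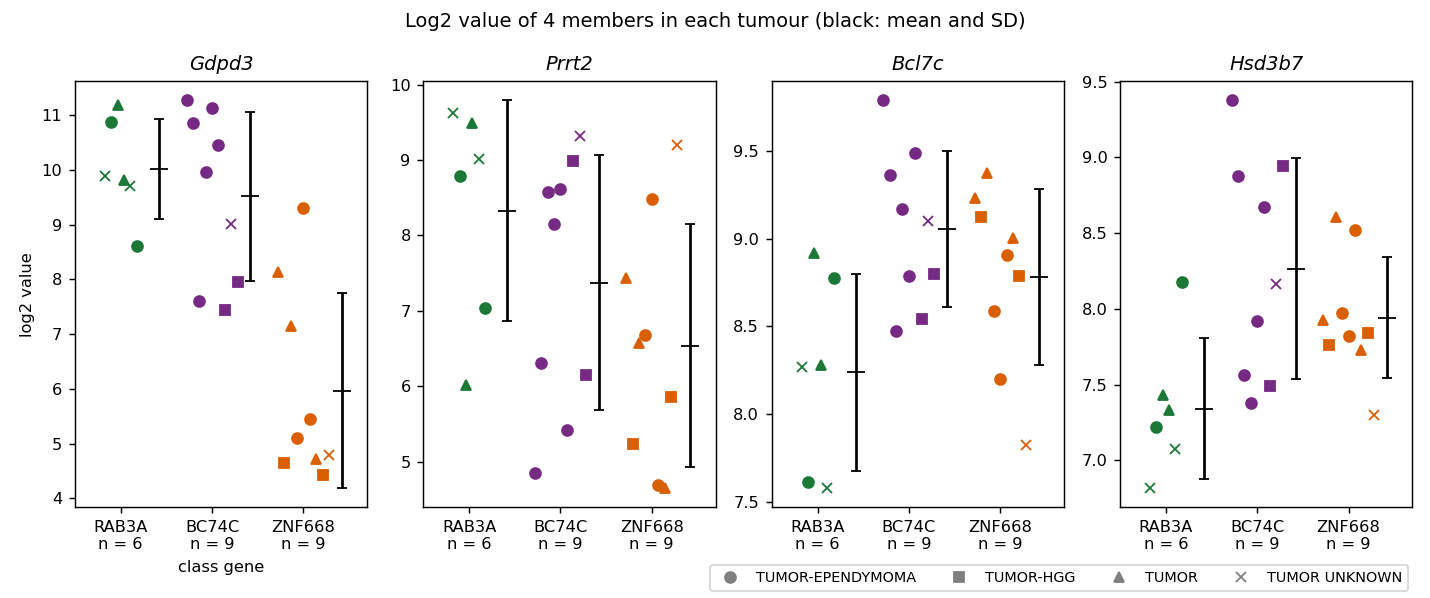
Log2 value of Gdpd3, Prrt2, Bcl7c and Hsd3b7 in each tumour by class gene, with point shapes for the tumour label and the mean and SD in black. Gdpd3 is at or below 5.45 in 6 of 9 ZNF668 tumours and at or above 7.44 in every RAB3A and BC74C tumour, while the groups overlap in all 4 genes.

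Gdpd3 was 4.05 higher on the log2 scale in RAB3A than in ZNF668 tumours (SE 0.76, limma adjusted p = 0.0400), and each of the 6 RAB3A values exceeded the average over ZNF668. It was 3.55 higher in BC74C than in ZNF668 tumours (SE 0.68, limma adjusted p = 0.0171), with 9 of 9 values above it. Both differences are taken against the same ZNF668 tumours. Between RAB3A and BC74C tumours Gdpd3 differed by 0.49 (SE 0.76, limma adjusted p = 0.857). The call between RAB3A and ZNF668 was lost in 13 of 24 fits that left out 1 tumour: BC74C replicate 6 or 8, ZNF668 replicate 2, 3, 4, 6, 7 or 8, or a RAB3A tumour other than replicate 6. Over the 24 fits the difference was 3.81 to 4.46 and the limma adjusted p 0.0154 to 0.155. The call between BC74C and ZNF668 held in all 24 fits that left out 1 tumour (3.33 to 3.97, limma adjusted p at most 0.0427).

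The mean of the neuron list, which also differed in mean between class genes, was 8.92 ± 1.03 (SD, n = 6) with RAB3A. It was 8.32 ± 1.41 (SD, n = 9) with BC74C and 7.67 ± 1.53 (SD, n = 9) with ZNF668. With it as a covariate the Gdpd3 difference between RAB3A and ZNF668 was 3.93 (limma adjusted p = 0.154) and that between BC74C and ZNF668 was 3.49 (0.0189). Within the 18 tumours that share the commoner title prefix the differences from ZNF668 were 3.81 for RAB3A (limma adjusted p = 0.124) and 3.09 for BC74C (0.119). With the prefix as a block both remained called, at 4.05 (0.0195) and 3.17 (0.0260). The other prefix holds 2 RAB3A, 1 BC74C and 3 ZNF668 tumours and was not fitted alone. Among the ependymoma tumours the differences were 3.13 and 3.60, neither passing the test. The 4 tumours labelled TUMOR UNKNOWN had neuron list means of 9.36 to 9.98, and without them the differences were 4.01 for RAB3A (limma adjusted p = 0.374) and 3.47 for BC74C (0.0573), an alternative chosen after seeing the data.

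Among tumour labels, the 4 HGG tumours had Gdpd3 values of 7.44 and 7.95 (BC74C replicates 7 and 9) and 4.64 and 4.43 (ZNF668 replicates 2 and 8). The 11 ependymoma tumours ranged from 5.10 over a median of 9.95 to 11.27. The HGG values lay below the ependymoma median without exception, but the ranges overlapped. With the class gene as a covariate the difference was -2.32 (SE 0.79, limma adjusted p = 0.9998, unadjusted p = 0.0111). All 4 HGG tumours are BC74C or ZNF668 tumours, so RAB3A tumours carry no information on this difference.

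Gdpd3 varied more than any other member. Its SD over the 24 tumours was 2.36, which ranked 8 among 13218 genes tested, whereas the median SD was 0.37 over the tested members and 0.44 over all genes tested. The next most variable members were Prrt2 (SD 1.69), Sez6l2 (1.44), Kif22 (1.30) and Asphd1 (1.15). Least variable were Cd2bp2 (0.18), a spliceosome-associated protein, Tbc1d10b (0.19), a Rab GTPase-activating protein, and the histone acetyltransferase Kat8 (0.21).

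In RAB3A against ZNF668 tumours, 1 of 44 tested members was called, Gdpd3, where limma called 0.0757% of all genes tested (10 of 13218; 0.00757% higher, which is Gdpd3 itself, and 0.0681% lower). At an unadjusted p under 0.05, 7 of 44 members passed, against 9.21% of all genes. Of these 3 were higher (2.87% of all genes) and 4 lower (6.34%). Positive differences were found in 19 of 44 members, against 43.8% of all genes, and the median difference was -0.029 in members and -0.045 in all genes. The largest differences after Gdpd3 were those of Prrt2, a presynaptic protein that regulates vesicle release (1.79, SE 0.80, unadjusted p = 0.0350), and Sez6l2, a neuronal surface protein (1.01, SE 0.72). The lowest were those of Kif22, a chromosome-binding kinesin of mitosis (-0.71, SE 0.66), Mvp, the major vault protein (-0.60, SE 0.32), and Hsd3b7, an enzyme of bile acid synthesis (-0.60, SE 0.29). The smallest limma adjusted p of a member other than Gdpd3 was 0.486, for Stx4a (-0.50, SE 0.19).

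In BC74C against ZNF668 tumours Gdpd3 was again the 1 called member, where limma called 0.303% of all genes (40 of 13218; 0.0832% higher and 0.219% lower). At an unadjusted p under 0.05, 4 of 44 members passed, against 6.88% of all genes, 3 of them higher (3.27%) and 1 lower (3.61%). Differences above 0 were found in 24 of 44 members and 51.2% of all genes. Beside Gdpd3, those at an unadjusted p under 0.05 were the zinc finger genes Zfp768 (0.39, SE 0.19) and Zfp688 (0.33, SE 0.14), which were higher, and Kat8 (-0.25, SE 0.11), which was lower. After Gdpd3 the largest differences were Prrt2 at 0.84 (SE 0.72) and Sez6l2 at 0.48 (SE 0.64). The lowest were Mvp at -0.58 (SE 0.28), Zfp689 at -0.30 (SE 0.15) and the selenophosphate synthetase Sephs2 at -0.26 (SE 0.15). The median over members was 0.027, against 0.0047 over all genes, and the smallest limma adjusted p after Gdpd3 was 0.616.

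In RAB3A against BC74C tumours limma called 0 members and 0 of 13218 genes (a share of 0%). At an unadjusted p under 0.05, 4 of 44 members passed, against 8.21% of all genes, 0 higher (2.19%) and 4 lower (6.01%). Differences above 0 were found in 19 of 44 members and 44% of all genes, with a median of -0.042 in members and -0.037 in all genes. The 3 lowest were Hsd3b7 at -0.92 (SE 0.29, unadjusted p = 0.00378), Kif22 at -0.82 (SE 0.66) and Bcl7c at -0.82 (SE 0.25, unadjusted p = 0.00367); Hsd3b7 and Bcl7c each had a limma adjusted p of 0.353. The highest were Prrt2 at 0.96 (SE 0.80), Asphd1 at 0.55 (SE 0.57) and Coro1a at 0.55 (SE 0.37).

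**Figure D2:**
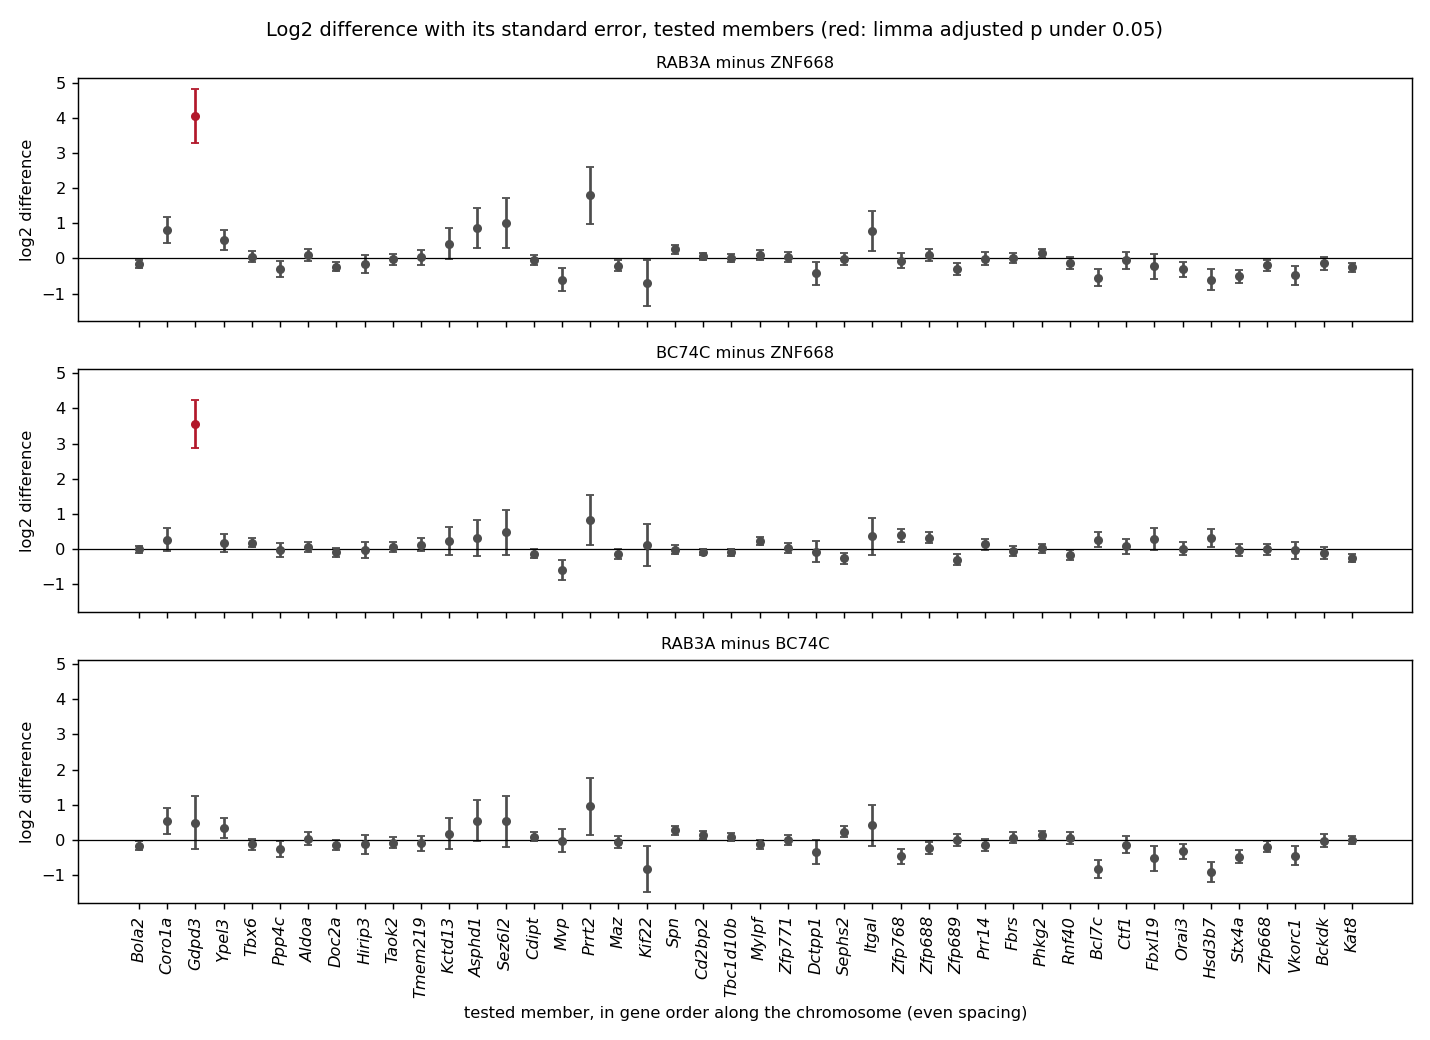
Log2 differences of the 44 tested members with their standard errors, in gene order, for the 3 comparisons of class genes. Gdpd3 (4.05 and 3.55 against ZNF668) stands alone in red as the called member, while its measured neighbours Coro1a (0.82 and 0.27) and Ypel3 (0.52 and 0.18) did not pass the test.

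HGG against ependymoma tumours gave 0 called members, and limma called 0 of 13218 genes (a share of 0%); 2 of 44 members and 1.73% of all genes passed at an unadjusted p under 0.05, both members lower (1.07% of all genes; 0.658% higher). Differences above 0 were found in 17 of 44 members and 50.2% of all genes. The 2 members at an unadjusted p under 0.05 were Gdpd3 and the T-box factor Tbx6 (-0.44, SE 0.15), a dim transcript at 3.65 ± 0.25 (SD, n = 4) in HGG and 4.05 ± 0.24 (SD, n = 11) in ependymoma tumours. Sez6l2 at -1.03 (SE 0.78) and Mvp at -0.67 (SE 0.37) followed. Kif22 at 0.45 (SE 0.71), the F-box and CXXC protein Fbxl19 at 0.41 (SE 0.43) and Sephs2 at 0.36 (SE 0.22) were the highest. Whether the effect of the label differed between BC74C and ZNF668 tumours was tested with an interaction term, which called 0 of 44 members and 0 of 13218 genes (smallest limma adjusted p of a member = 0.591). At an unadjusted p under 0.05, 3 of 44 members passed, all lower, against 8.16% of all genes in either direction and 5.48% lower: HGG minus ependymoma in BC74C tumours minus that in ZNF668 tumours was -1.23 for Zfp768, -3.24 for Kif22 and -0.92 for Sephs2.

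The 6 tested genes of synapses and vesicles held the most variable members after Gdpd3, and none of the 6 passed limma's test in any comparison. Prrt2 and Stx4a had an unadjusted p under 0.05 in at least 1, as did 1.73% to 9.21% of all genes, depending on the comparison. Prrt2 ranged in RAB3A tumours from 6.02 over a median of 8.90 to 9.62, in BC74C tumours from 4.84 over 8.15 to 9.31, and in ZNF668 tumours from 4.65 over 6.58 to 9.20. Sez6l2 ranged from 8.61 over 10.24 to 10.91, from 7.66 over 9.9995 to 11.33, and from 6.43 over 8.97 to 11.42 in the same order. Both genes were thus high and low within each class gene, and the groups overlapped over most of their range. Both followed the neuron list: across the 24 tumours Pearson's r was 0.94 for Prrt2 (Spearman's rho = 0.93) and 0.96 for Sez6l2 (rho = 0.94). For each of these the permutation p was 1e-05, the smallest that 100000 permutations can give, and 2.2e-05 after Benjamini-Hochberg adjustment over the 9 relations tested. Without the 2 tumours farthest from the list's median r was 0.95 for each, and within the 2 title prefixes it was 0.96 (18 tumours) and 0.98 (6 tumours) for Prrt2 and 0.96 and 0.97 for Sez6l2. With the list mean as a covariate the RAB3A minus ZNF668 difference of Prrt2 was 0.44 in place of 1.79 and that of Sez6l2 was -0.25 in place of 1.01. In bulk tumours, a smaller share of neurons and less RNA per neuron cannot be told apart.

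Kctd13, an adaptor of a CUL3 ubiquitin ligase that has been studied for brain size, ranged from 7.06 over a median of 8.38 to 9.52 in RAB3A, from 6.93 over 8.23 to 9.28 in BC74C and from 6.59 over 7.88 to 9.24 in ZNF668 tumours. The groups overlapped nearly in full, with a difference of 0.42 (SE 0.44) between RAB3A and ZNF668, and across the 24 tumours its r with the neuron list, given as a description, was 0.94. Doc2a, a calcium sensor of spontaneous transmitter release, had r = -0.17 with the neuron list (permutation p = 0.432, adjusted 0.432; rho = -0.022, p = 0.920, adjusted 0.920; r = -0.18 without the 2 farthest tumours, -0.075 and -0.41 within the title prefixes), and its range over the groups was narrow. Stx4a, a plasma membrane syntaxin, ranged in RAB3A tumours from 8.95 over a median of 9.36 to 9.60, in BC74C from 8.82 over 9.91 to 10.41 and in ZNF668 from 9.40 over 9.85 to 10.27. All 6 RAB3A tumours lay below the mean of either other group, at differences of -0.50 (SE 0.19) from ZNF668 and -0.48 (SE 0.19) from BC74C, which did not pass (limma adjusted p = 0.486 and 0.493).

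**Figure D3:**
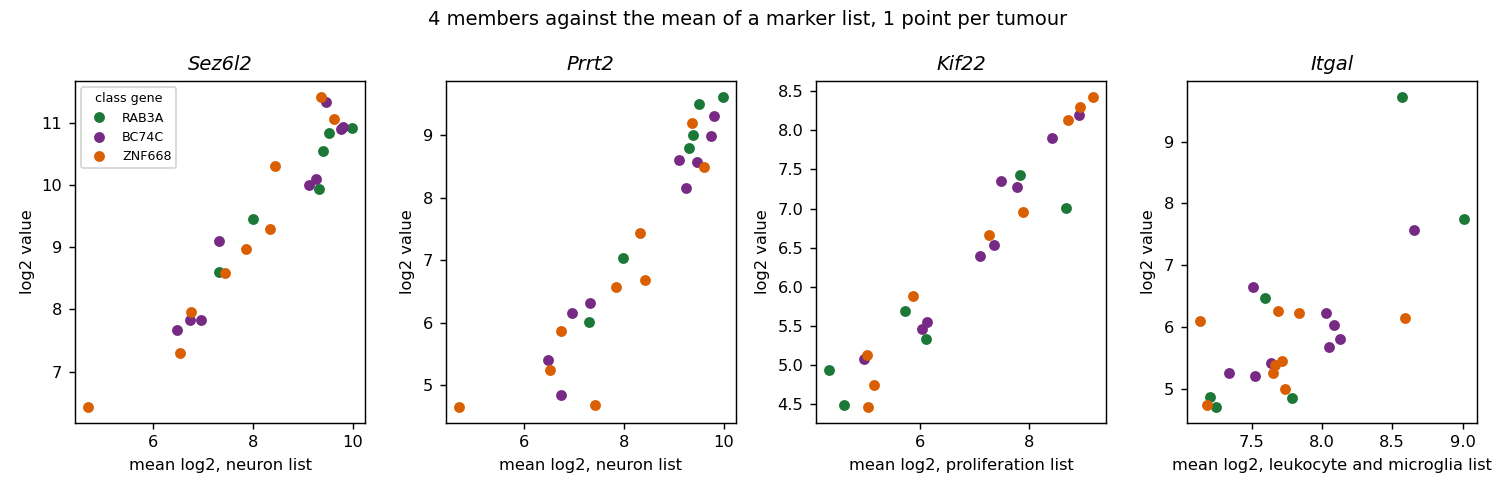
Log2 values of Sez6l2, Prrt2, Kif22 and Itgal against the mean of a marker list, 1 point per tumour, coloured by class gene. Across all 24 tumours Sez6l2 and Prrt2 follow the neuron list (r = 0.96 and 0.94) and Kif22 the proliferation list (r = 0.97). The highest Itgal value (9.73) is a RAB3A tumour.

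The 3 leukocyte genes of the block were carried in part by 1 tumour. Coro1a, an actin regulator of leukocytes, ranged in RAB3A tumours from 7.94 over a median of 9.43 to 11.63, and Itgal, the integrin chain of LFA-1, from 4.70 over 5.66 to 9.73; both highest values belong to RAB3A replicate 5. Coro1a differed by 0.82 (SE 0.37) and Itgal by 0.78 (SE 0.58) between RAB3A and ZNF668 tumours, and without RAB3A replicate 5 by 0.39 and 0.11. Spn, the sialophorin CD43, differed by 0.26 and without that tumour by 0.11. Its probe set was dim, with a mean of 3.79 just above the brightness floor of 3.76. Between RAB3A and BC74C tumours the Itgal difference changed from 0.41 to -0.26 without it. None of the 3 passed limma's test in any comparison, and only Coro1a, between RAB3A and ZNF668, had an unadjusted p under 0.05 (9.21% of all genes there). The mean of the leukocyte and microglia list was 8.57 in RAB3A replicate 5 and 9.01 in RAB3A replicate 4, in a range over all tumours of 7.13 to 9.01. Its part in these differences was not tested.

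Itgal followed that list with r = 0.70 (permutation p = 0.00016, adjusted 0.000288; rho = 0.55, p = 0.00540, adjusted 0.00810) and Coro1a with r = 0.58 (permutation p = 0.00283, adjusted 0.00424; rho = 0.56, p = 0.00502, adjusted 0.00810). Without the 2 farthest tumours r was 0.59 and 0.58. Within the title prefixes it was 0.78 and 0.74 for Itgal and 0.53 and 0.79 for Coro1a. For Spn r was 0.45 (permutation p = 0.0262, adjusted 0.0336) while rho was 0.34 (permutation p = 0.102, adjusted 0.131), and within the title prefixes r was 0.28 and 0.82. Without the 2 farthest tumours it was 0.62. With the neuron list, given as a description, r was 0.60 for Coro1a, -0.028 for Itgal and 0.22 for Spn. Coro1a thus had about the same r with both lists. Mylpf, a myosin light chain of fast skeletal muscle, had r = 0.24 with the muscle list (permutation p = 0.271, adjusted 0.305; rho = 0.096, p = 0.656, adjusted 0.738). Its r was 0.28 without the 2 farthest tumours and 0.19 and 0.53 within the title prefixes. Of the 10 muscle markers only 4 were bright enough to be tested, and the brightest was Pvalb (mean 7.67). The r with this list thus cannot decide whether Mylpf follows muscle transcripts.

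Kif22 and Hirip3, a histone chaperone-binding protein, followed the proliferation list. Kif22 ranged from 4.49 over a median of 5.51 to 7.42 in RAB3A, from 5.08 over 6.53 to 8.19 in BC74C and from 4.46 over 6.66 to 8.43 in ZNF668 tumours. Its r with the list was 0.97 (rho = 0.95) and that of Hirip3 was 0.81 (rho = 0.82), each with a permutation p of 1e-05, adjusted 2.2e-05. Without the 2 farthest tumours r was 0.97 and 0.86, and within the title prefixes 0.97 and 0.95 for Kif22 and 0.76 and 0.92 for Hirip3. The mean of the proliferation list was 6.22 ± 1.72 (SD, n = 6) with RAB3A. It was 7.13 ± 1.23 (SD, n = 9) with BC74C and 7.01 ± 1.74 (SD, n = 9) with ZNF668, and its part in the Kif22 differences was not tested.

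Among the 9 tested genes of chromatin and transcription, 7 had a negative difference between RAB3A and ZNF668 tumours. Limma called 0 of the 9, and 2 had an unadjusted p under 0.05, Kat8 and Bcl7c. Over all genes tested, 7429 of 13218 had a negative difference, limma called 0.0757%, and 9.21% had an unadjusted p under 0.05. Bcl7c, a subunit of BAF chromatin remodelling complexes, ranged in RAB3A tumours from 7.58 over a median of 8.28 to 8.92, in BC74C from 8.47 over 9.10 to 9.79 and in ZNF668 from 7.83 over 8.91 to 9.38. All 6 RAB3A tumours lay below the BC74C mean, but the groups overlapped. The difference rested on 1 of its 2 probe sets: between RAB3A and BC74C the brighter set gave -0.82 (mean 8.75 over all tumours) and the dimmer set 0.26 (mean 5.48). Whether BC74C stands for this gene is not stated in the labels, and whether these probe sets detect an introduced class gene was not tested.

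The 5 tested zinc finger genes differed by -0.29 to 0.099 between RAB3A and ZNF668 tumours. Zfp668, the mouse orthologue of the class gene ZNF668, ranged from 4.54 over 4.65 to 5.30 in RAB3A, from 4.70 over 4.89 to 5.76 in BC74C and from 4.67 over 5.001 to 5.55 in ZNF668 tumours. The groups overlapped nearly in full, with differences of -0.20 (SE 0.16) for RAB3A and -0.0086 (SE 0.15) for BC74C against ZNF668. Its second probe set, with a mean of 3.96, gave 0.48 for RAB3A against ZNF668 (limma unadjusted p = 0.00811, adjusted p = 0.564). Whether these probe sets detect the introduced class gene was not tested.

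Of the 7 tested metabolic genes Gdpd3 alone was called, against ZNF668 (limma called 0.0757% of all genes for RAB3A and 0.303% for BC74C). Hsd3b7 ranged from 6.82 over 7.27 to 8.18 in RAB3A, from 7.38 over 8.16 to 9.38 in BC74C and from 7.30 over 7.84 to 8.60 in ZNF668 tumours, and all 6 RAB3A tumours lay below the BC74C mean. Aldoa, the aldolase of glycolysis, differed by 0.10 (SE 0.17) and 0.063 (SE 0.15) from ZNF668 in RAB3A and BC74C tumours, and its 3 further probe sets gave 0.099 to 0.18 in the first of these comparisons. The 4 tested kinase and phosphatase genes, Taok2, Ppp4c, Phkg2 and Bckdk, differed by -0.29 to 0.15 between RAB3A and ZNF668 tumours. Limma called 0 of them (0.0757% of all genes), and 0 had an unadjusted p under 0.05 (9.21% of all genes). Among the remaining 10 tested members, which include Mvp, Kif22 and Asphd1, limma called 0 in any comparison (at most 0.303% of all genes). An unadjusted p under 0.05 was found for 0 of them, against 1.73% to 9.21% of all genes, depending on the comparison. Cd2bp2 differed by 0.062 between RAB3A and ZNF668 tumours, while its dimmer probe sets gave -0.54 and -0.61.

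No member's groups were free of overlap in any of the 3 comparisons of class genes: 0 of 44 for RAB3A against ZNF668 (0.0454% of all genes), 0 of 44 for BC74C against ZNF668 (0.0757%) and 0 of 44 for RAB3A against BC74C (0.113%). Over the 17 genes that lie between the end members without being members, 9 were tested and limma called 0 in any comparison (at most 0.303% of all genes). At most 1 had an unadjusted p under 0.05, against 1.73% to 9.21% of all genes, depending on the comparison. Over the 20 nearest genes on either side 32 of 40 were tested and limma called 0 (at most 4 at an unadjusted p under 0.05, beside the same shares of all genes). The largest difference among these was that of Sult1a1, a phenol sulfotransferase, at 2.002 between RAB3A and ZNF668 tumours (limma unadjusted p = 0.00653, adjusted p = 0.470).

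Whether neighbours move together was described by Pearson's r across the 24 tumours after the mean of each class gene was removed, with no test, since all pairs share the same tumours. Over 35 pairs of members with no other tested gene between them, the median r was 0.15, and 8 pairs (22.9%) had r above 0.5. Over all 12598 pairs of adjacent tested genes in the genome the median was 0.079 and 14.6% had r above 0.5. Over all 946 pairs of tested members the median r was 0.025, with 97 pairs (10.3%) above 0.5 and 88 (9.30%) below -0.5; over all pairs of tested genes it was 0.0065, with 9.56% above 0.5. The 35 pairs share the tumours and often a gene, so no interval is given for their share, and whether it differs from that of the genome was not tested. With the neuron list mean removed as well, 4 of 35 adjacent pairs (11.4%) stayed above 0.5, against 8.35% in the genome.

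By distance in gene order, 18.6% of the 43 pairs of consecutive tested members had r above 0.5, and 15.7% of pairs at 2 to 3 steps, 14.9% at 4 to 7 steps, 10.4% at 8 to 15 steps, 6.71% at 16 to 31 steps and 5.13% at 32 to 43 steps. The share was lower in each successive range, but the median r was not: it was 0.11 at 1 step, -0.0055 at 2 to 3 steps and 0.11 again at 32 to 43 steps. Shares by distance were not computed for the genome or with the neuron list mean removed, so an effect of distance was not tested.

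**Figure D4:**
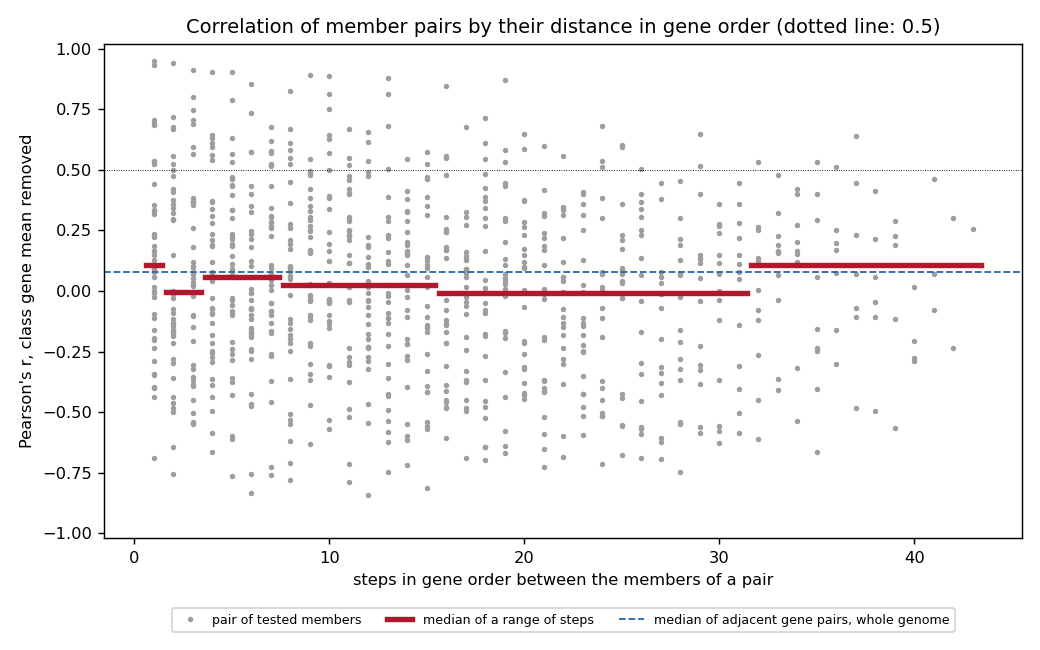
Pearson's r of each of the 946 pairs of tested members, class gene mean removed, against their distance in gene order, with the median of each range of steps and of adjacent gene pairs in the genome. Pairs above 0.5 thin out with distance, from 18.6% at 1 step to 5.13% at 32 to 43 steps, while the medians stay between -0.0066 and 0.11.

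The adjacent pairs with the highest r were Kctd13 with Asphd1 (0.95), Asphd1 with Sez6l2 (0.93), Orai3 with Hsd3b7 (0.71), Hsd3b7 with Stx4a (0.69) and Sez6l2 with Cdipt (0.68). Asphd1 encodes a hydroxylase-domain protein, Orai3 a calcium channel of store-operated entry and Cdipt the phosphatidylinositol synthase. The lowest were Ppp4c, a phosphatase catalytic subunit, with Aldoa (-0.69), Zfp771 with Dctpp1, a nucleotide pyrophosphatase (-0.44), and Stx4a with Zfp668 (-0.40). With the neuron list mean removed the r of Kctd13 with Asphd1 was 0.53, of Asphd1 with Sez6l2 0.23 and of Sez6l2 with Cdipt -0.12, while those of Orai3 with Hsd3b7 and Hsd3b7 with Stx4a were 0.58 and 0.64.

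Several sets of members, picked out after their r values were seen, stood out as patches in the correlation matrix. Ypel3, Kctd13, Asphd1, Sez6l2 and Prrt2 had r between 0.83 and 0.95 in their 10 pairs, and a median of 0.22 with the neuron list mean removed. Ppp4c and Hirip3, which lie among them in gene order, and Kif22 and Dctpp1, which lie beyond Prrt2, had r between 0.75 and 0.87 in their 6 pairs and kept a median of 0.67. Across the 24 tumours the r of these 4 genes with the proliferation list was 0.88, 0.81, 0.97 and 0.86 in that order. In the first set it ran from -0.825 (Asphd1) to -0.73 (Prrt2). The proliferation list mean was not removed, and its part in these patches was not tested. Between these sets the 20 values of r ran from -0.84 to -0.53 (median -0.74), and with the neuron list mean removed from -0.58 to 0.077 (median -0.20). The run of Orai3, Hsd3b7, Stx4a, Vkorc1, Bckdk and Kat8 near the far end of the block had r between 0.43 and 0.71 in 15 pairs, with a median of 0.56 and 0.47 with the neuron list mean removed; Zfp668 lies within this run and had negative r with its neighbours on both sides (-0.40 with Stx4a and -0.16 with Vkorc1, the warfarin-sensitive epoxide reductase). Over all tested members, 10 of 44 (22.7%) had r above 0.5 with the neuron list and 12 (27.3%) below -0.5, against 18.9% and 25.1% of all genes.

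**Figure D5:**
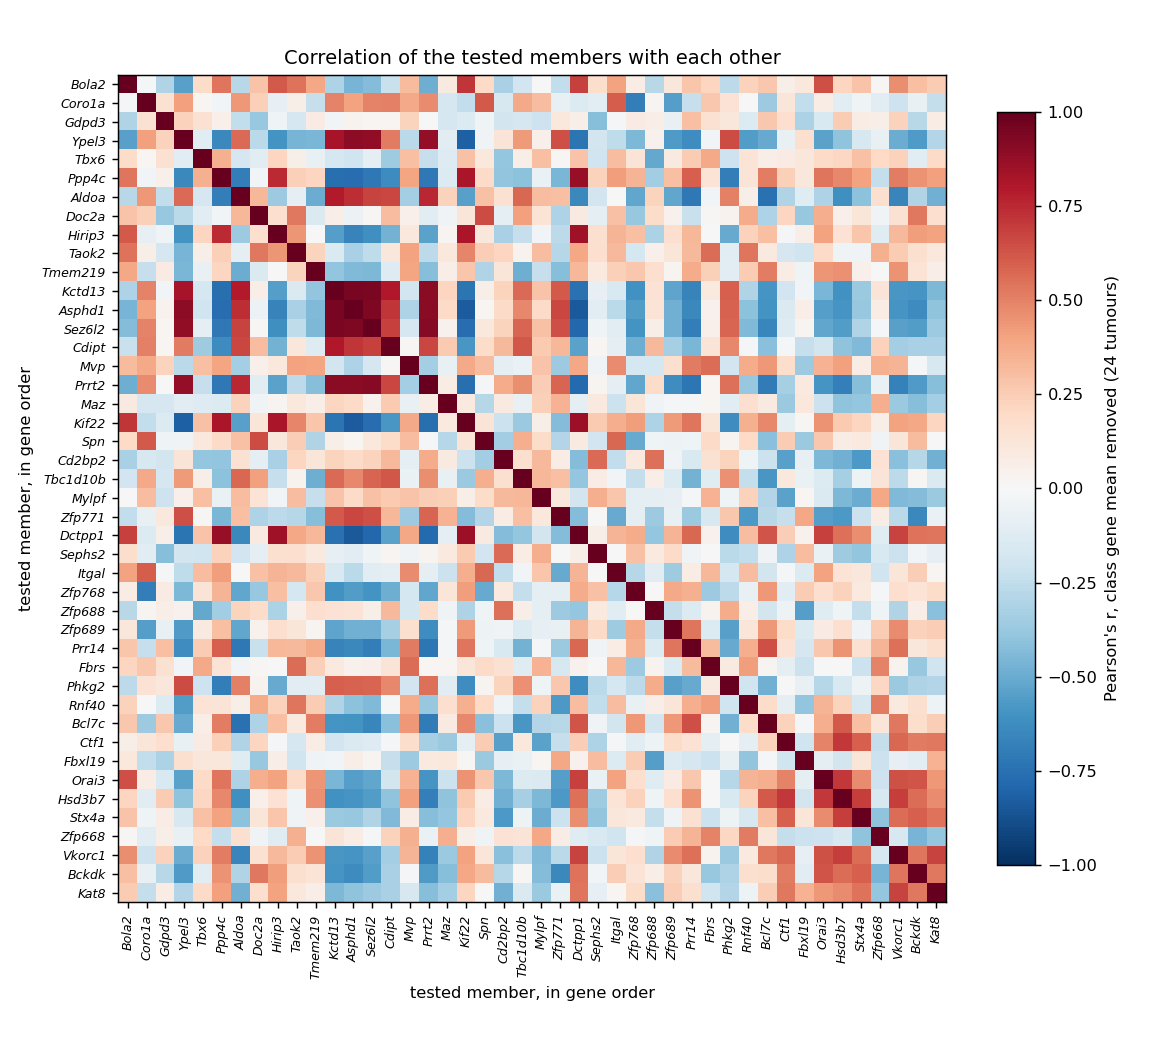
Pearson's r between the 44 tested members in gene order, class gene mean removed, over 24 tumours. Kctd13, Asphd1, Sez6l2 and Prrt2 form a patch of high r that opposes Kif22 and Dctpp1 (Asphd1 with Dctpp1 -0.84), and the row of Gdpd3 is pale throughout (-0.42 to 0.30).

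Gdpd3 had low r with its neighbours, about as low as with the genes tested at large. Its r, class gene mean removed, was 0.15 with Coro1a, the nearest measured member on one side, and 0.23 with Ypel3 on the other; Mapk3, which lies between Coro1a and Gdpd3, was not measured. With the 43 other tested members r ran from -0.42 (Sephs2) to 0.30 (Prr14), with a median of 0.017. Without removal of the class gene mean, r was 0.35 with Coro1a and 0.36 with Ypel3. On that measure the median absolute r of Gdpd3 was 0.19 over the other tested members and 0.16 over all tested genes. Over all tested genes the ones most like Gdpd3 across the 24 tumours, without removal of the class gene mean, lay elsewhere: Ino80d, a subunit of the INO80 remodelling complex (r = 0.81), Gmeb1 (0.72), Nell2 (0.71), the apoptosis inhibitor Bcl2 (0.70) and Rab11fip2, a Rab11 effector (0.68). Most opposed were the non-coding Abhd11os (-0.85), Nol3 (-0.83) and Gm16793 (-0.81). With the class gene mean removed these r were 0.64, 0.47, 0.58, 0.60 and 0.48, and -0.58, -0.52 and -0.47. These genes were picked from 13218 by their r, which is given as a description.

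Each gene entered with 1 promoter window, the first listed where it had several. All genes with a window served for comparison, without a filter on gene type. The part of gene type in the differences below was not tested. The 43 promoter windows of the block, of 300 bases each (250 before and 50 after the start), had a median GC content of 57.7% against 52.7% over the 27025 genes with a window, and a median ratio of observed to expected CG dinucleotides of 0.70 against 0.39. That of Gdpd3 was 0.23 with 7 CG dinucleotides, near the low end, where Aldoa stood at 0 (the first of its 3 windows), Mylpf at 0.089, Hsd3b7 and Spn at 0.12, Mvp at 0.13 and Ctf1, the cytokine cardiotrophin, at 0.21. Kctd13 had 1.10 with 35 CG dinucleotides, and Sephs2 had the highest ratio at 1.18. Of motifs searched on both strands, CCGGAAG, the core of ETS family sites, was in 9 of 43 windows (20.9%, against 9.12% of all), GGGAGGG in 18 (41.9% against 21.3%), CCGCCC in 23 (53.5% against 35.9%), CCAAT in 20 (46.5% against 37.9%) and TATAAA in 3 (6.98% against 14.2%). CACGTG was in 4 (9.30% against 7.24%) and TGACGTCA in 1 (2.33% against 1.88%). CCGGAAG was in the windows of Kctd13, Kif22 and Hirip3 and in neither that of Gdpd3 nor that of Ypel3, and none of the 7 motifs was in that of Gdpd3. A match is a description of letters, and a window without one says nothing on the factor.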

How the data were processed

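RNA of 24 tumours was measured on 1 array each. The deposited values are on a log2 scale, as judged from their range (2.40 to 13.9), and the submitters' processing notes name Partek 6.6; background correction, normalization and summarisation are not given in the sources used here. Of 45141 probe sets, 28898 had 1 gene symbol in the platform annotation, 551 several and 15588 none; 104 were controls, and 28689 matched RefSeq (GRCm38.p6) by Entrez ID. All deposited columns belong to a sample.

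Probe sets with a mean under the 30th percentile (log2 3.76) were left out. Class genes were compared with limma 3.58.1 (R 4.3.3) in 1 fit over all 24 tumours, and HGG with ependymoma tumours with the class gene as a covariate. P-values were adjusted by Benjamini-Hochberg over all 13218 tested genes, with a threshold of 0.05. The fits were tested on simulated data. Correlations with marker lists were tested two-sided with 100000 permutations (Python 3.11.15, numpy 2.4.6, scipy 1.17.1, pandas 2.3.3; plots with matplotlib 3.10.9). Named genes are Gdpd3, Bcl7c, Zfp668 and Mapk3, called members, the 3 highest and 3 lowest member differences per comparison, the 5 most and 3 least variable members, the 9 set against marker lists, the 5 adjacent pairs with the highest and 3 with the lowest r, the 5 and 3 genes most like and unlike Gdpd3, and up to 4 examples per role; further names, sets of pairs and other probe sets were chosen after their values were seen. Alternatives covered scaling, the dim filter, the choice of probe set, title prefix, tumour label, covariates and each tumour left out. The members and lists were chosen with earlier results of these data known.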

Additional observations from a re-analysis of the deposited data

Results flagged for a closer look

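In 176 groups of 4 to 9 tumours (44 members by 4 groups), 13 held 1 tumour that stood apart from the rest by Dixon's criterion (7.39%). Chance sets apart about 1 in 20 independent groups. These groups are not independent, since they share tumours and the HGG tumours are also BC74C or ZNF668 tumours. BC74C replicate 7 stood apart in 3 genes among the 4 HGG tumours: Asphd1 was 8.35 (nearest value 5.44), Zfp768 4.94 (nearest 5.54) and Bckdk 8.23 (nearest 8.69). That tumour also had the highest neuron list mean of the HGG tumours, 9.76. BC74C replicate 4 stood apart among BC74C tumours in Fbrs at 7.50 (nearest 6.92), Zfp668 at 5.76 (nearest 5.17) and Bckdk at 7.11 (nearest 8.21). RAB3A replicate 5 was apart in Spn at 4.71 (nearest 4.04) and Mylpf at 5.02 (nearest 4.54). Among ZNF668 tumours, replicate 4 was apart in Tbx6 at 4.50 (nearest 3.85) and Zfp688 at 6.15 (nearest 6.98), replicate 3 in Mylpf at 4.06 (nearest 4.38), replicate 8 in Sephs2 at 9.45 (nearest 8.77) and replicate 6 in Zfp668 at 5.55 (nearest 5.08).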

How the results depend on the processing

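Over 32 differences of named members and 1075 alternatives, 1022 kept direction and side of the threshold, 21 kept direction and lost the call, and 32 changed sign, over 13 differences. Only Gdpd3 against ZNF668, for RAB3A and for BC74C, was called to begin with, so the other differences had no call to lose. For RAB3A the Gdpd3 call was lost in 13 of 24 fits leaving out 1 tumour and in 5 of 13 other alternatives. For BC74C it was lost in 0 of 24 and 3 of 13. The count of called members for RAB3A minus ZNF668 went from 1 to 0 within the 18 tumours of the commoner title prefix, within ependymoma, with only those 2 class genes fitted, with the neuron list mean as a covariate and without TUMOR UNKNOWN; leaving out 1 tumour gave 0 to 1. For BC74C minus ZNF668 it went from 1 to 0 within the commoner prefix, within ependymoma and without TUMOR UNKNOWN; leaving out 1 tumour gave 1 in every case. The counts for RAB3A minus BC74C and for HGG minus ependymoma were 0 under every alternative. For Gdpd3, RAB3A minus ZNF668 with only those 2 class genes was 4.05 (limma adjusted p = 0.203), over a range of adjusted p in the alternatives up to 0.9997.

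Changes of sign were these. Bcl7c, BC74C minus ZNF668: -0.020 as the mean of probe sets and -0.32 with the probe set of largest SD. Bcl7c, RAB3A minus BC74C: 0.26 with the probe set of largest SD. Bcl7c, HGG minus ependymoma: 0.051 with that set, 0.032 with array weights, and -0.27 to 0.068 over fits leaving out 1 tumour. Zfp668, BC74C minus ZNF668: 0.014 after quantile normalization, 0.043 as the mean of sets, 0.095 with the largest SD, 0.012 within the commoner prefix, 0.017 within ependymoma, 0.015 without TUMOR UNKNOWN, and -0.11 to 0.061 leaving out 1 tumour. Zfp668, RAB3A minus BC74C: 0.096 as the mean and 0.38 with the largest SD. Zfp668, RAB3A minus ZNF668: 0.14 and 0.48 likewise. Zfp668, HGG minus ependymoma: 0.020 with the largest SD. Sez6l2, BC74C minus ZNF668: -0.65 within ependymoma and -0.18 with the neuron covariate. Sez6l2, RAB3A minus ZNF668: -0.29 and -0.25 likewise. Kif22, RAB3A minus ZNF668: 0.22 with the neuron covariate; Kif22, HGG minus ependymoma: -0.0058 to 1.11 leaving out 1 tumour. Sephs2, BC74C minus ZNF668: 0.14 within ependymoma. Gdpd3, RAB3A minus BC74C: -0.47 within ependymoma. The causes were not tested, and what stretch of a transcript each probe set measures was not examined. The share of adjacent member pairs with r above 0.5 was 11.4% to 20% under its alternatives. Each lay below the 22.9% given above. The genome share was 13.4% against 17.1% for members with Spearman's rho, and 15.5% against 20% within the commoner prefix. It was 13.96% against 20% with the class gene mean kept, and 11.4% against 20% without the dim filter. With the neuron list mean removed as well it was 8.35% against 11.4%. Whether these shares differ was not tested. No paired analysis was made, because the labels give no pairing of tumours between class genes. The replicate numbers used here follow the order of deposit.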
